A study of Homo sapiens with 12 samples.

Results

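Long noncoding host genes carry small RNAs inside them. The genes described here are the hosts of small nucleolar RNAs (snoRNAs), named SNHG plus a number or GAS5, and the hosts of microRNAs, named after the microRNA with the ending HG. They were chosen by symbol alone, and 92 such genes were present among the 56098 genes listed in either of 2 deposited tables. Of these, 29 were snoRNA hosts and 63 were microRNA hosts. All 92 stood in the table of ZNF683 and Mock libraries, and 87 stood in the doxycycline table, from which MIR31HG, MIR217HG, MIR381HG, MIR583HG and MIR670HG were missing.

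RNA was sequenced from 12 libraries of Jurkat, a human leukaemic T cell line, with 3 libraries in each of 4 groups. The first table set Jurkat cells labelled as expressing ZNF683 on doxycycline induction against cells labelled Mock. The gene ZNF683 codes for Hobit, a transcription factor of tissue-resident and effector lymphocytes. The second table set libraries titled Hobit and labelled Dox+, grown in doxycycline (1 ug/uL in the labels), against libraries of the same title labelled Dox-. The labels do not say whether Mock cells received doxycycline, how the factor was introduced, whether a line was 1 clone, or that replicates came from separate cultures. The p-values therefore measure only the spread between these libraries, which may be technical. Values are TPM, a length-normalized abundance scaled to a fixed total, which keeps no record of read number, so depth is unknown.

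The libraries carried T cell transcripts, with 14 of 14 T cell line markers at a mean of at least 1 TPM in each group. Of the listed markers of other cell types, 4 of 14 reached that mean in ZNF683 and in Mock. In Dox+ it was 4 of 13 and in Dox- 5 of 13. CD79A and PECAM1 had the highest means among them. The ZNF683 gene itself was low everywhere, at 1.17, 1.76 and 1.04 TPM in the ZNF683 libraries, 0.715, 1.59 and 0.681 in Mock, 0.453, 0.775 and 0.571 in Dox+ and 0.115, 0.239 and 0.451 in Dox-. It does not check the labels of the first table, where the groups overlapped. In the second table the lowest Dox+ value, 0.4527, barely exceeded the highest Dox- value, 0.4506, and all were under 1 TPM. ZNF683 is therefore no firm check of those labels either. A pair of Dox- libraries stood apart. In Dox- library 1 a single gene, AL135790.1, took 50.7% of all TPM, against 4.94% to 12.8% in the other 11 libraries, which lowers every other value there. In Dox- library 2 the heat shock gene HSPA6 stood at 637 TPM, against at most 0.351 in the other 5 libraries of that table, and DDIT3, a stress response factor, stood at 171 against 12.5 to 22.1. Of the other cell type markers, HBA1 stood at 19.6 TPM there and COL1A1 at 17, against at most 1.5 and 1.12 in the other 5. CD79A and PECAM1 were lowest in that library. HSPA6 also separated the first table, at 0.515, 0.399 and 0.618 TPM with ZNF683 and 6.85, 5.88 and 4.07 in Mock. HSPA1A and HSPA1B were likewise lower with ZNF683. PPP1R15A, another stress gene, separated the groups the other way, at 31.15, 33.11 and 26.16 TPM against 24.1, 21.3 and 23.63 in Mock. The groups overlapped for DDIT3, ATF3, ADM and BNIP3. The part of AL135790.1 or of the stress genes in the host gene values was not tested.

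SnoRNAs guide chemical modification of ribosomal and spliceosomal RNA, by 2'-O-methylation for the C/D box class and by pseudouridylation for the H/ACA class. Most of them lie in introns and are freed when the host transcript is spliced and its intron is debranched and trimmed. The spliced host is often a noncoding RNA that associates with ribosomes and is removed by nonsense-mediated decay, and many hosts start with a C followed by pyrimidines, the 5' terminal oligopyrimidine feature shared with ribosomal protein genes. MicroRNA hosts are processed differently: Drosha and DGCR8 cut a hairpin from the primary transcript, Dicer cuts it again, and the seed at bases 2 to 8 of the mature strand directs binding to messenger RNAs. GAS5 is known for accumulating in growth-arrested lymphocytes, and MIR17HG carries the miR-17-92 cluster that is often overexpressed in lymphoid tumours.

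Start sequences are shown because the snoRNA hosts differed in this feature at their annotated starts. The lines give RefSeq windows on GRCh38.p14, with 20 bases before the start and 30 from it, and capitals mark the unbroken run of pyrimidines from the first transcribed base. The first 5 hosts have a C and at least 4 further pyrimidines, SNHG1 has a shorter run, and SNHG29 and GAS5, 2 of the most abundant members, have no pyrimidine at the start annotated in this table. Positions are chr6:85678704-85678753 on the minus strand for SNHG5, chr6:31834896-31834945 on the plus strand for SNHG32, chr16:2155329-2155378 minus for SNHG19, chr1:28581844-28581893 minus for SNHG12, chr5:139274081-139274130 plus for SNHG4, chr11:62855856-62855905 minus for SNHG1, chr17:16438967-16439016 plus for SNHG29 and chr1:173869016-173869065 minus for GAS5.
SNHG5: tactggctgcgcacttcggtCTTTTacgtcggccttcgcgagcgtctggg
SNHG32: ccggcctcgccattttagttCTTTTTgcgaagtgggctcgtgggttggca
SNHG19: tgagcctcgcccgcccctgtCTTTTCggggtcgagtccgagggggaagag
SNHG12: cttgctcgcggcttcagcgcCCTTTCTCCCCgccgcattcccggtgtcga
SNHG4: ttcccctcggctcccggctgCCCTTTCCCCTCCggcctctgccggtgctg
SNHG1: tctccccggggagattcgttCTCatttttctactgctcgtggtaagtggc
SNHG29: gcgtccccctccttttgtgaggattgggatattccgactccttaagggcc
GAS5: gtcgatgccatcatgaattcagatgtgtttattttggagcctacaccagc

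A window was found for 73 of the 92 members by symbol. A first base C with C or T at each of the next 4 positions was present in 6 of 25 snoRNA hosts (24.0%), which were the 5 above and SNHG18, and in 2 of 48 microRNA hosts (4.17%). The same feature was present in 16 of 27 protein-coding snoRNA hosts (59.3%), mostly ribosomal protein genes, and in 1404 of 27305 RefSeq genes with a window (5.14%). At the same offset on the other strand of the window the shares were 4%, 6.25%, 3.70% and 4.18%. A match describes these letters only, and a missing match says only that they are not at this annotated start.

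The hosted RNAs are shown for the hosts on which the values below turn. SNHG1 carries C/D box snoRNAs, given from GENCODE v29 transcripts on GRCh38 with the C box (TGATGA) and the D box (CTGA) in capitals, searched as these letters on the transcribed strand. They are SNORD25 at chr11:62855564-62855632, SNORD27 at chr11:62855012-62855083 and SNORD30 at chr11:62853663-62853732, all on the minus strand. SNORD50B lies in SNHG5 at chr6:85677589-85677658 on the minus strand, and SNORD104 lies in SNHG25 at chr17:64146083-64146152 on the plus strand.
SNORD25: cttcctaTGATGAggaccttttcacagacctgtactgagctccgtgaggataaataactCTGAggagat
SNORD27: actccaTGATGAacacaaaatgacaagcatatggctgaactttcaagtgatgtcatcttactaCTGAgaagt
SNORD30: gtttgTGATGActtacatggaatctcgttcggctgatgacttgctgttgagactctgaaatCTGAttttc
SNORD50B: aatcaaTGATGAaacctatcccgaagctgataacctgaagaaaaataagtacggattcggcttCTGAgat
SNORD104: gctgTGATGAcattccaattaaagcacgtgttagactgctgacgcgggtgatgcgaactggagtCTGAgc

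The mature microRNAs are from RefSeq on GRCh38.p14, with the seed in capitals. MIR17HG carries 6 hairpins between the first base of miR-17-5p and the last of miR-92a-3p, chr13:91350618-91351382 on the plus strand, and MIR302CHG carries 5 hairpins at chr4:112647877-112648547 on the minus strand. By seed, miR-17-5p groups with miR-20a-5p, miR-19a-3p with miR-19b-3p, and the 4 miR-302 3p strands with each other. The seed of miR-92a-3p is also that of miR-367-3p, so these 2 hosts share 1 seed, and MIR181A1HG and MIR181A2HG, on chromosomes 1 and 9, carry the same miR-181a-5p and miR-181b-5p.
hsa-miR-17-5p: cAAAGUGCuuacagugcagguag
hsa-miR-20a-5p: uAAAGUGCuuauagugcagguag
hsa-miR-18a-5p: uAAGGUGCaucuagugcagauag
hsa-miR-19a-3p: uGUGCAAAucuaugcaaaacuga
hsa-miR-19b-3p: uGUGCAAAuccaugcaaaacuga
hsa-miR-92a-3p: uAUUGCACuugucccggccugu
hsa-miR-367-3p: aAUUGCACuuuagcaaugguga
hsa-miR-302a-3p: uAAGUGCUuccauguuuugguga
hsa-miR-302d-3p: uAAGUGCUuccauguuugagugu
hsa-miR-181a-5p: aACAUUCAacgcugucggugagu
hsa-miR-181b-5p: aACAUUCAuugcugucggugggu
hsa-miR-210-3p: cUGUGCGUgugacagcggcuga
hsa-miR-223-3p: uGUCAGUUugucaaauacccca
hsa-miR-646: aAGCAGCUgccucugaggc
hsa-miR-663a: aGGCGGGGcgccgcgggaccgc

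The snoRNA hosts were far more abundant than the microRNA hosts. In TPM, the median over hosts of the mean of 6 libraries was 21.1 for the 29 snoRNA hosts and 0.653 for the 63 microRNA hosts in the ZNF683 and Mock table, and 20.5 and 0.409 in the doxycycline table. SNHG29, host of C/D box snoRNAs, was the highest snoRNA host in both tables, with means of 370.2 and 459.8 TPM, and MIR646HG was the highest microRNA host, with means of 58.9 and 39.2 TPM. A mean of at least 20 TPM was reached by 15 and 16 snoRNA hosts in the 2 tables, and by 2 microRNA hosts in each, MIR646HG and MIR181A1HG. At least 100 TPM was reached by 5 and 6 snoRNA hosts and by no microRNA host.

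Low members were mainly microRNA hosts. In the ZNF683 and Mock table, 42 members stayed under a mean of 1 TPM, from MIR31HG at 0.00457 to MIR23AHG at 0.976, and 3 of them, SNHG18, SNHG22 and SNHG28, were snoRNA hosts. MIR155HG, the precursor of a microRNA induced in activated lymphocytes, stood between 0.0299 and 0.208 TPM in these 6 libraries, and MIR34AHG, a p53 target, between 0.15 and 0.464. Testing was limited to genes averaging 1 TPM or more in a table. This left 50 members in the first table (26 snoRNA and 24 microRNA hosts) and 41 in the second (25 and 16).

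**Figure D1:**
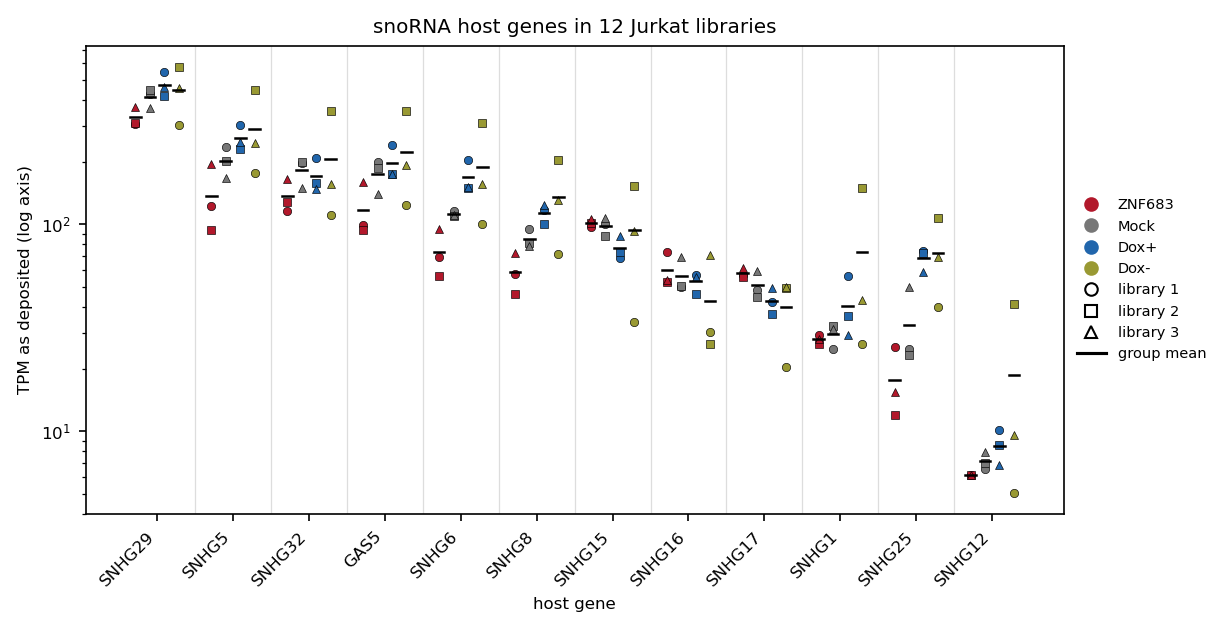
TPM as deposited of 12 snoRNA host genes (log axis) in every library, by group (colour) and library number (marker), with group means as bars. SNHG6 and SNHG8 show ZNF683 libraries below all Mock libraries, and Dox- library 2 (squares) lies far above the rest for SNHG1, at 150.5 TPM, and for SNHG12, at 41.4 TPM.

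The first comparison asked which genes differ between Jurkat libraries labelled ZNF683 and those labelled Mock. No host gene passed the test. Group means were lower in ZNF683 libraries for the abundant snoRNA hosts SNHG29, SNHG5, SNHG32, GAS5, SNHG6 and SNHG8, and slightly higher for SNHG15, SNHG16 and SNHG17. In bulk RNA, less of a transcript in every cell and fewer cells that hold it cannot be told apart. The test was limma on log2(TPM + 1), with Benjamini-Hochberg adjustment over all genes tested and a threshold of 0.05. It called 0 of 50 members, against 0.0301% of all genes (5 of 16588).

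At an unadjusted p under 0.05, beside 13.0% of all genes counted in either direction, 12 members stood out, all lower with ZNF683. Of these, 10 were snoRNA hosts (GAS5, SNHG5, SNHG6, SNHG8, SNHG9, SNHG19, SNHG25, SNHG26, SNHG29 and SNHG32) and 2 were microRNA hosts (MIR223HG and MIR302CHG). The smallest adjusted p by limma was 0.283 among snoRNA hosts, for SNHG6, and 0.271 among microRNA hosts, for MIR302CHG. Of 26 snoRNA hosts, 9 had a log2 change above 0 and 17 below, with a median of -0.14, beside 0.03 over all genes tested, of which 54.9% were above 0. The 10 snoRNA hosts at an unadjusted p under 0.05 became 4 without ZNF683 library 2, 6 without Mock library 1 or Mock library 2, 8 without ZNF683 library 3, 7 without ZNF683 library 1 and 10 without Mock library 3. The count over all 16588 genes moved as well, from 2152 to 1021 without ZNF683 library 2, 1584 and 1136 without Mock library 1 and 2, 3175 without ZNF683 library 3, 1361 without ZNF683 library 1 and 3725 without Mock library 3. With the libraries rescaled by the median of ratios, the split of 9 and 17 was unchanged and the medians were -0.09 for the snoRNA hosts and 0.07 for all genes.

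GAS5 and SNHG5 were lower on average with ZNF683, with overlapping groups. GAS5 stood at 99.2, 93.9 and 160.1 TPM with ZNF683 (118 ± 36.8, SD, n = 3) and at 199.8, 187 and 140.1 TPM in Mock (176 ± 31.5, SD, n = 3). The highest ZNF683 library, library 3, lay above the lowest Mock library, also numbered 3. Its log2 change was -0.60 ± 0.22 (SE), with a limma adjusted p of 0.346. SNHG5, host of SNORD50A and SNORD50B, had the same layout, at 123, 93.8 and 196.5 TPM with ZNF683 and 237, 202 and 167 TPM in Mock, with a log2 change of -0.60 ± 0.26 (SE) and a limma adjusted p of 0.379. In both genes ZNF683 library 2 was the lowest of the 6 libraries and Mock library 1 the highest.

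SNHG32, whose introns hold SNORD48, stood at 116, 129 and 165 TPM with ZNF683 and 199, 200.3 and 150.2 TPM in Mock. SNHG29 stood at 307, 310.4 and 369.5 TPM with ZNF683 (329 ± 35.2, SD, n = 3) and 425, 445 and 365 TPM in Mock (412 ± 41.9, SD, n = 3). The groups overlapped in both genes because ZNF683 library 3 lay above Mock library 3. The log2 changes were -0.42 ± 0.17 (SE) for SNHG32 and -0.32 ± 0.13 (SE) for SNHG29, with limma adjusted p-values of 0.365 and 0.364.

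SNHG6 separated the groups, at 69.9, 56.0 and 94.8 TPM with ZNF683 against 116, 110.1 and 110.7 TPM in Mock. Its log2 change was -0.64 ± 0.18 (SE), with a limma adjusted p of 0.283. SNHG8, host of SNORA24, also separated them, at 57.7, 45.9 and 72.6 TPM against 94.9, 81.3 and 79.0 TPM. Its log2 change was -0.55 ± 0.17 (SE), with a limma adjusted p of 0.308. All 3 ZNF683 libraries lay below all 3 Mock libraries for both genes, and the spread within ZNF683 was wider than that within Mock.

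In all, 6 of 26 snoRNA hosts had ZNF683 libraries wholly below Mock (SNHG6, SNHG8, SNHG9, SNHG10, SNHG12 and SNHG26), and 4 of 24 microRNA hosts did (MIR205HG, MIR223HG, MIR302CHG and MIR924HG). Over all genes tested the groups stood apart in this direction for 8.51%. MIR205HG reached the 1 TPM filter only through Mock, with means of 0.856 TPM with ZNF683 and 1.19 TPM in Mock. The filter favoured such a difference, so its separation does not count as evidence of a change. None of the 50 members had ZNF683 wholly above Mock, beside 8.71% of all genes. With median-of-ratios scaling SNHG10 overlapped, MIR193BHG stood apart lower and SNHG17 stood apart higher, so the counts became 10 lower and 1 higher. Over all genes tested with that scaling, 7.24% stood apart lower and 11.8% higher.

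The size of a separation was small for some of these. SNHG12 stood at 6.14, 6.14 and 6.13 TPM with ZNF683 and 6.58, 6.99 and 7.98 TPM in Mock. SNHG10 stood at 26.6, 26.9 and 30.04 TPM against 32.2, 32.4 and 30.3 TPM. Their limma adjusted p-values were 0.459 and 0.444. SNHG9 and SNHG26 differed by more. SNHG9 stood at 10.4, 6.77 and 9.04 TPM with ZNF683 and 12.2, 13.3 and 19.8 TPM in Mock, a log2 change of -0.71 ± 0.20 (SE, limma adjusted p = 0.291). SNHG26 stood at 5.38, 5.41 and 4.73 TPM against 5.98, 9.26 and 9.25 TPM, a log2 change of -0.55 ± 0.17 (SE, limma adjusted p = 0.309).

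SNHG25, host of SNORD104, had the largest negative log2 change of all tested members, with a wide spread in both groups. It stood at 25.4, 11.98 and 15.5 TPM with ZNF683 and 25.0, 23.5 and 49.8 TPM in Mock. Mock library 3 was the highest, and ZNF683 library 1 lay level with Mock libraries 1 and 2. The log2 change was -0.84 ± 0.33 (SE), with a limma adjusted p of 0.365.

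SNHG7 had the largest positive log2 change, 0.34 ± 0.27 (SE, limma adjusted p = 0.559). It stood at 6.67, 14.1 and 15.7 TPM with ZNF683 and 8.83, 8.51 and 9.22 TPM in Mock, so ZNF683 library 1 lay below all Mock libraries and the other 2 above them. SNHG17, host of the SNORA71 snoRNAs, stood at 57.1, 55.7 and 61.7 TPM with ZNF683 and 48.2, 44.7 and 59.6 TPM in Mock. SNHG11 stood at 17.3, 19.9 and 20.6 TPM against 14.2, 14.6 and 18.6 TPM. Both genes were higher on average and overlapped through Mock library 3, with limma adjusted p-values of 0.484 for SNHG17 and 0.412 for SNHG11.

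Several abundant snoRNA hosts were level. SNHG15 stood between 97.2 and 106 TPM with ZNF683 and between 87.4 and 107 TPM in Mock. SNHG16 stood between 52.8 and 73.7 TPM and between 49.8 and 69.3 TPM. SNHG1 stood between 26.5 and 29.1 TPM and between 25.0 and 32.3 TPM. SNHG14, the long imprinted host of the SNORD115 and SNORD116 clusters, stood between 22.4 and 24.4 TPM and between 20.02 and 25.4 TPM. SNHG3, SNHG21 and SNHG30 also overlapped, with means between 14.9 and 21.7 TPM in every group of this table.

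The hosts with a C and pyrimidines at the start lay on the low side. All 5 tested (SNHG4, SNHG5, SNHG12, SNHG19 and SNHG32) had log2 changes below 0, with a median of -0.42. Among 17 tested snoRNA hosts with another annotated start, 8 were above 0 and 9 below, with a median of -0.07. SNHG6, SNHG9, SNHG15 and SNHG25 had no start window and are in neither set. SNHG6, SNHG9 and SNHG25 had large negative log2 changes, so the contrast depends on which hosts had a window. Protein-coding snoRNA hosts, which include RPS12 and TPT1, were also mostly low: of 35, 8 were above 0 and 27 below, with a median of -0.28, 10 at an unadjusted p under 0.05 (13.0% of all genes) and 0 past the limma threshold (0.0301% of all genes; smallest adjusted p = 0.288). RPS12, a ribosomal protein gene, stood at 364, 267.5 and 471 TPM with ZNF683 and 601, 598 and 534 TPM in Mock.

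Summed over the 29 snoRNA hosts, the libraries held 1248, 1168 and 1535 TPM with ZNF683 and 1720, 1671 and 1557 TPM in Mock. The groups stood apart by a narrow gap between ZNF683 library 3 and Mock library 3. As a share of protein-coding TPM these were 0.145%, 0.132% and 0.176% against 0.201%, 0.199% and 0.180%. With median-of-ratios scaling the sums were 1276, 1206 and 1533 against 1832, 1544 and 1501, and the groups overlapped. With AL135790.1 left out before rescaling they were 1342, 1228 and 1616 against 1847, 1815 and 1661, and the groups stood apart. The sum is dominated by SNHG29, SNHG5, SNHG32 and GAS5.

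The machinery that acts on these hosts gave 0 calls in each list, beside the same 0.0301% of all genes. Of 17 snoRNA particle proteins, 13 had a log2 change above 0 and 4 below, with a median of 0.19, beside 54.9% above 0 and a median of 0.03 over all genes. At an unadjusted p under 0.05 there were 2, a share near the 13.0% of all genes. DKC1, the pseudouridine synthase of H/ACA particles, stood at 162, 147 and 131 TPM with ZNF683 and 91.8, 90.6 and 138 TPM in Mock (limma adjusted p = 0.346). Of 15 nonsense-mediated decay and exon junction genes, 8 were above 0 and 7 below, with a median of 0.03 and 1 at an unadjusted p under 0.05, against the same 13.0%. This was SMG1, a kinase of the decay pathway, at 18.1, 16.2 and 15.6 TPM with ZNF683 and 19.7, 21.4 and 21.6 TPM in Mock (limma adjusted p = 0.333).

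**Figure D2:**
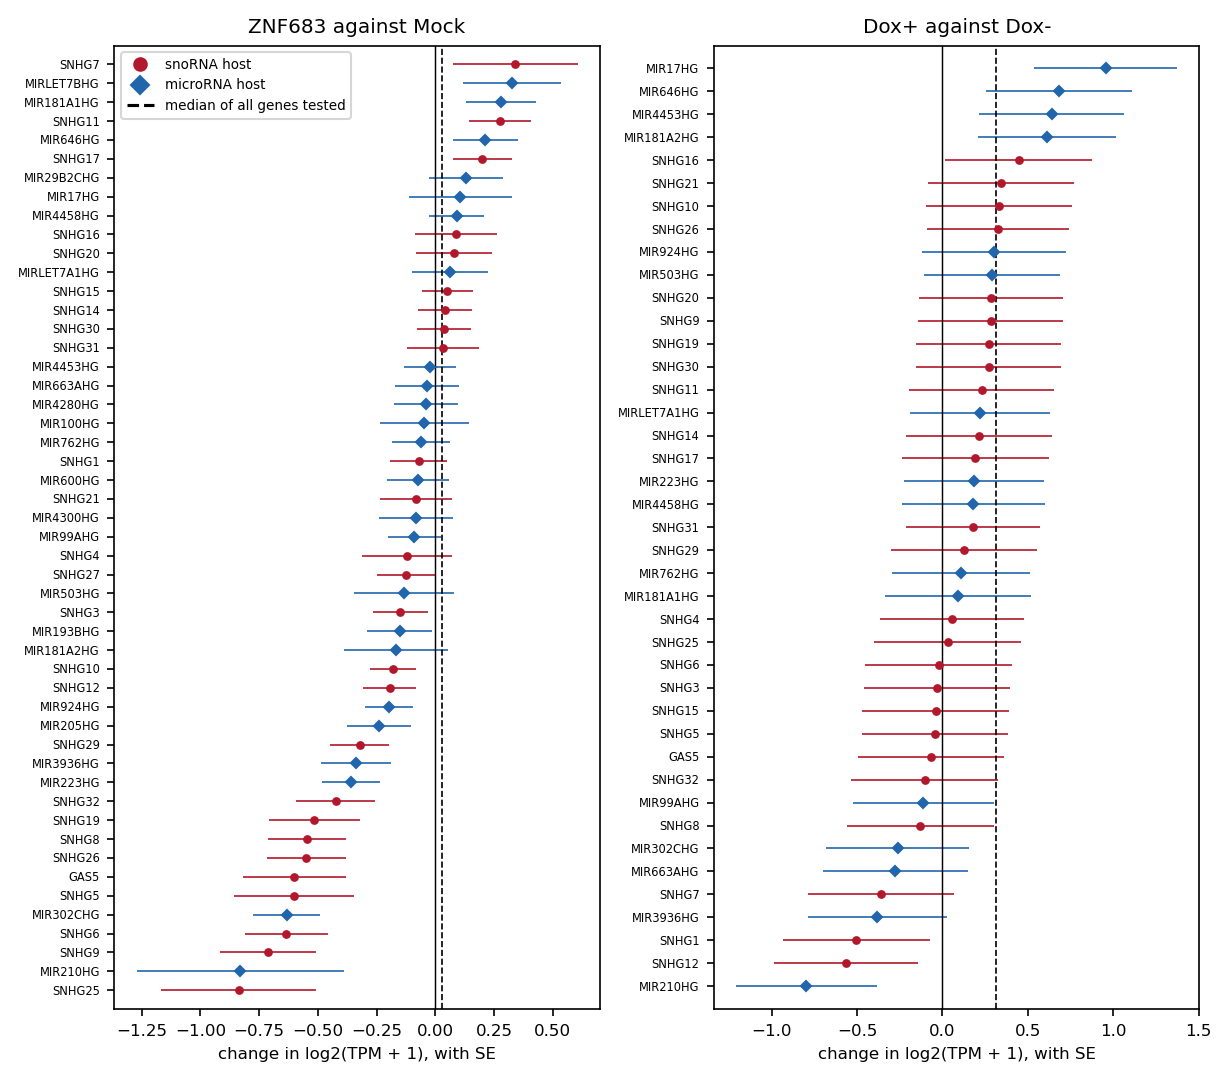
Change in log2(TPM + 1) with its standard error from limma for the 50 members tested in ZNF683 against Mock and the 41 tested in Dox+ against Dox-, for snoRNA hosts (circles) and microRNA hosts (diamonds), with 0 (solid) and the median of all genes tested (dashed). The dashed line lies at 0.03 and at 0.32, and no member passed the adjusted threshold in either comparison.

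Among microRNA hosts, MIR302CHG, the host of a pluripotency-associated cluster, had the smallest adjusted p of all members. It stood at 1.21, 1.43 and 1.56 TPM with ZNF683 (1.40 ± 0.18, SD, n = 3) and 2.33, 2.74 and 3.11 TPM in Mock (2.73 ± 0.39, SD, n = 3). Every ZNF683 library lay below every Mock library. The log2 change was -0.63 ± 0.14 (SE), with a limma adjusted p of 0.271. MIR223HG, the host of a myeloid microRNA, stood at 1.75, 1.79 and 1.64 TPM against 2.41, 2.39 and 2.68 TPM, a log2 change of -0.36 ± 0.12 (SE, limma adjusted p = 0.337). The other hosts standing apart were smaller in change: MIR924HG stood between 9.51 and 9.63 TPM with ZNF683 and between 10.7 and 12.03 TPM in Mock, and MIR205HG between 0.77 and 0.918 TPM and between 1.10 and 1.28 TPM.

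MIR210HG, whose microRNA is a well-known target of the hypoxia response, varied widely within both groups. It stood at 2.495, 6.30 and 7.37 TPM with ZNF683 and 13.4, 14.1 and 4.52 TPM in Mock. Mock library 3 lay below 2 of the ZNF683 libraries. BNIP3, another hypoxia-responsive gene, ordered the 6 libraries in the same way, at 53.3, 71.6 and 73.0 TPM with ZNF683 and 116, 118 and 55.9 TPM in Mock. The log2 change of MIR210HG was -0.83 ± 0.44 (SE), with a limma adjusted p of 0.434, and the part of a hypoxia response was not tested.

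The most abundant microRNA hosts were slightly higher with ZNF683 and overlapped. MIR646HG stood at 76.7, 54.3 and 59.8 TPM against 52.7, 57.3 and 52.6 TPM, a log2 change of 0.21 ± 0.14 (SE, limma adjusted p = 0.494). MIR181A1HG, which carries microRNAs known to set T cell receptor sensitivity in thymocytes, stood at 39.1, 35.9 and 30.1 TPM against 26.4, 25.4 and 34.5 TPM, a log2 change of 0.28 ± 0.15 (SE, limma adjusted p = 0.434). Mock library 3 was the only Mock library inside the ZNF683 range for MIR181A1HG. MIRLET7BHG had the largest positive log2 change of the microRNA hosts, 0.33 ± 0.21 (SE, limma adjusted p = 0.490), at 1.01, 2.24 and 2.21 TPM against 1.07, 1.39 and 1.15 TPM.

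MIR17HG was level, at 9.24, 7.45 and 9.53 TPM with ZNF683 and 6.10, 7.01 and 11.9 TPM in Mock (limma adjusted p = 0.832). MIR181A2HG, which carries the same mature sequences as MIR181A1HG, did not share its direction, with a log2 change of -0.17 ± 0.22 (SE, limma adjusted p = 0.729). MIR663AHG stood between 14.4 and 18.3 TPM with ZNF683 and between 15.8 and 19.9 TPM in Mock. MIR4453HG stood between 8.22 and 8.49 TPM and between 7.62 and 9.29 TPM. MIR3936HG stood between 3.09 and 4.13 TPM and between 3.995 and 5.48 TPM, and MIR29B2CHG between 1.14 and 1.73 TPM and between 1.00 and 1.41 TPM.

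Over 24 tested microRNA hosts, 7 log2 changes were above 0 and 17 below, with a median of -0.07; with median-of-ratios scaling these were 9 and 15, with a median of -0.04. Summed TPM of the 63 microRNA hosts was 210.2, 189 and 200 with ZNF683 and 188, 204 and 201 in Mock, with overlapping groups. Of 13 microRNA processing genes, 8 were above 0 and 5 below, with a median of 0.12 and 3 at an unadjusted p under 0.05, beside 54.9% above 0, a median of 0.03 and 13.0% over all genes. DGCR8, the Drosha partner, stood at 16.7, 15.1 and 12.9 TPM with ZNF683 and 8.14, 8.79 and 13.6 TPM in Mock (limma adjusted p = 0.343). TNRC6B, also in this list, was lower with ZNF683, at 30.29, 29.95 and 33.75 TPM against 44.11, 35.36 and 36.4 TPM (limma adjusted p = 0.3665).

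**Figure D3:**
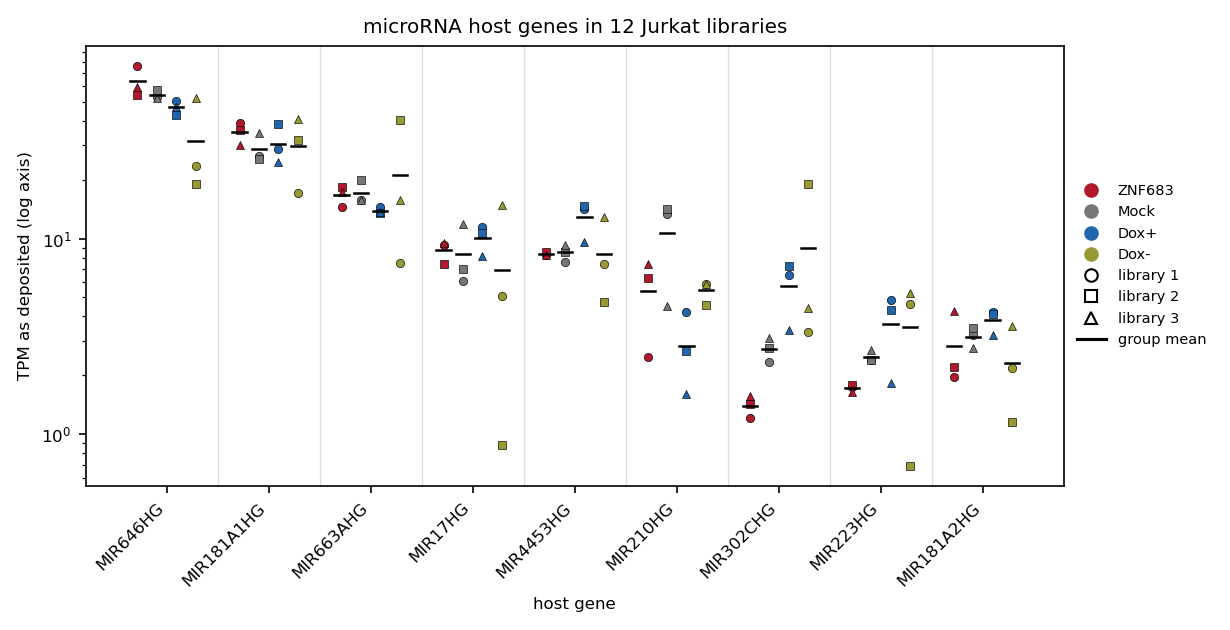
TPM as deposited of 9 microRNA host genes (log axis) in every library, by group (colour) and library number (marker), with group means as bars. MIR302CHG and MIR223HG show ZNF683 libraries below all Mock libraries, MIR210HG shows Dox+ below Dox-, and Dox- library 2 lies at 0.88 TPM for MIR17HG.

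The second comparison asked what differed between libraries with and without doxycycline. No host gene passed limma there, 0 of 41 members beside 0.396% of all genes (60 of 15148). MIR210HG was the only member whose groups stood apart, lower in Dox+, and several members had their highest and their lowest library both in the Dox- group. At an unadjusted p under 0.05 there was 1 member, MIR17HG, beside 6.34% of all genes (960). The smallest adjusted p was 0.717, for MIR17HG, and 0.737 among snoRNA hosts.

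MIR210HG stood at 4.22, 2.67 and 1.61 TPM in Dox+ (2.83 ± 1.31, SD, n = 3) and 5.85, 4.60 and 5.83 TPM in Dox- (5.43 ± 0.72, SD, n = 3). All Dox+ libraries lay below all Dox- libraries, also with median-of-ratios scaling. Over all genes tested the groups stood apart in this direction for 0.891%, and for 3.72% with that scaling. The log2 change was -0.80 ± 0.41 (SE), with a limma adjusted p of 0.737. The groups of BNIP3 also stood apart, at 46.1, 45.5 and 34.7 TPM in Dox+ and 68.4, 185 and 69.5 TPM in Dox-. No member had Dox+ wholly above Dox-, beside 7.91% of all genes.

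The direction of the rest differed between scalings. Dox- library 1, with AL135790.1 at 50.7% of its TPM, was the lowest of the 6 for 23 of 25 snoRNA hosts as deposited, and for 4 of 25 with median-of-ratios scaling. As deposited, 15 snoRNA hosts had a log2 change above 0 and 10 below, with a median of 0.12 beside 0.32 for all genes, of which 79.1% were above 0. With that scaling 11 were above and 14 below, with a median of -0.10 beside 0.13 for all genes, of which 64.4% were above 0. With AL135790.1 left out before rescaling, 7 were above and 18 below, with a median of -0.18 beside 0.06. The 16 microRNA hosts went from 11 above 0 and a median of 0.18 to 7 above 0 and a median of -0.03 with median-of-ratios scaling.

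Leaving out a Dox- library moved the same split. Without Dox- library 2 all 25 snoRNA hosts had a log2 change above 0, with a median of 0.33 beside 0.39 for all genes, and limma called 0. Without Dox- library 1, 6 were above 0 and 19 below, with a median of -0.21 beside 0.05, and limma called 0. Without Dox- library 3, which left the 2 libraries that stood apart, limma called 1 snoRNA host (SNHG16) and 1 microRNA host (MIR646HG), among 2779 genes called in all.

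The values show where the Dox- group split. GAS5 stood at 242, 175 and 175 TPM in Dox+ and 124, 353 and 195 TPM in Dox-. SNHG5 stood at 303, 233 and 250.1 TPM in Dox+ and 176, 444 and 247 TPM in Dox-. SNHG29 stood at 543, 417 and 460.1 TPM in Dox+ and 303, 578 and 458 TPM in Dox-. In each gene Dox- library 1 was the lowest and Dox- library 2 the highest, and Dox- library 3 lay within the Dox+ range. The limma adjusted p-values were 0.958, 0.973 and 0.916.

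SNHG6 (205, 150.2 and 152 TPM in Dox+, 101, 309 and 156 in Dox-) and SNHG8 (117, 101 and 124 TPM in Dox+, 71.5, 204 and 131 in Dox-) had that layout too, except that Dox- library 3 lay just above Dox+ for SNHG8. So did SNHG32, at 209.8, 158 and 149 TPM in Dox+ and 111, 353 and 157 in Dox-, and SNHG25, at 74.8, 73.0 and 58.8 TPM in Dox+ and 40.1, 107 and 69.7 in Dox-. None of these 4 separated the groups, and their limma adjusted p-values ranged from 0.914 to 0.987. SNHG6 and SNHG8, whose groups stood apart between ZNF683 and Mock, thus overlapped here.

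**Figure D4:**
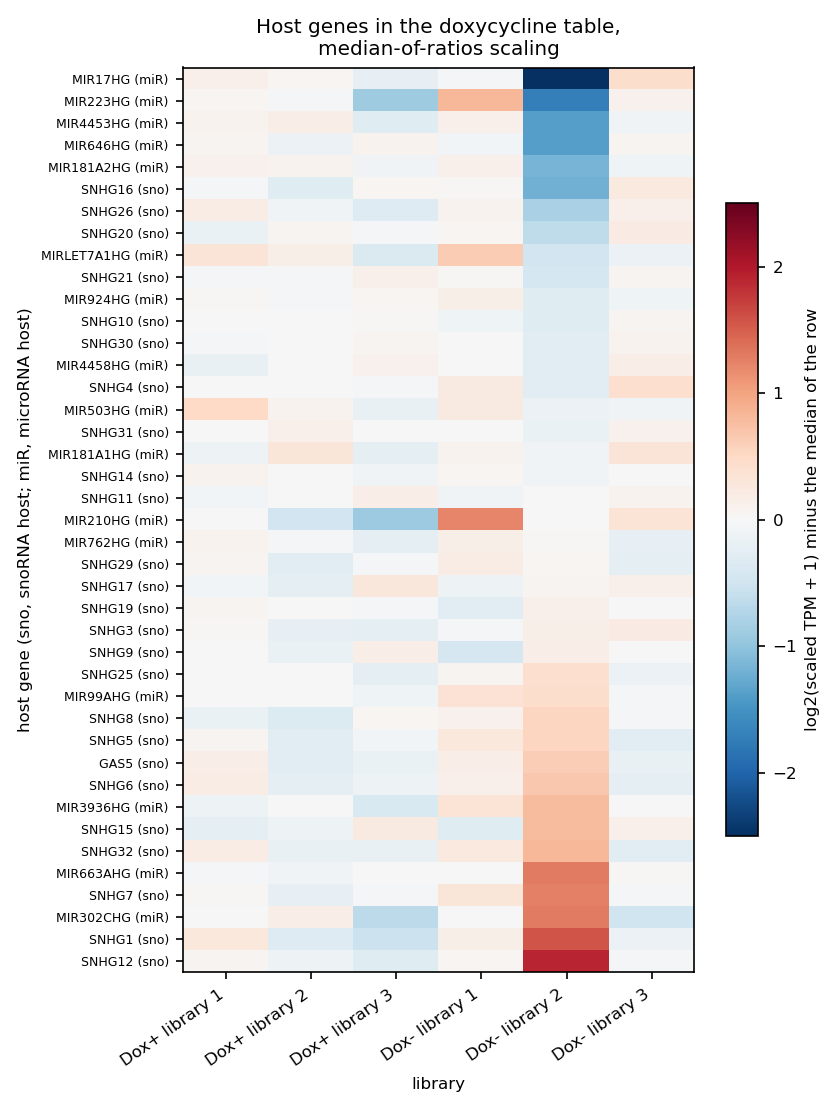
Each of the 41 members tested in the doxycycline table (rows) in its 6 libraries (columns), as log2(scaled TPM + 1) minus the median of the row, after median-of-ratios scaling. Dox- library 2 holds both ends, from SNHG12 and SNHG1, with 1.94 and 1.72 above the median of the other 5 libraries, to MIR17HG, at -2.62 on the same log2 scale.

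After median-of-ratios scaling, Dox- library 2 still differed from the other 5 libraries, in both directions. This is 1 library and a description with no test. On the log2(scaled TPM + 1) scale, 4 of 25 snoRNA hosts and 2 of 16 microRNA hosts lay more than 1 above the median of the other 5, beside 8.12% of all genes. Below it by more than 1 were 1 snoRNA host and 5 microRNA hosts, beside 15.6% of all genes. The library was the highest for 11 and the lowest for 9 of the 25 snoRNA hosts, and 5 lay inside the range of the others. Over all 15148 genes tested it was the highest for 3829 and the lowest for 7911, so a place outside that range was common among all genes.

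The high side was led by SNHG12, at 34.6 scaled TPM against 6.69 to 9.02 in the other 5 libraries. SNHG1, the host of SNORD25 to SNORD31, stood at 126 scaled TPM against 28.3 to 50.1. SNHG7 stood at 47.0 against 16.3 to 23.7, SNHG32 at 295 against 136 to 194.0, and SNHG15 at 128 against 59.2 to 85.8. Of microRNA hosts, MIR302CHG stood at 15.9 against 3.33 to 6.62 and MIR663AHG at 33.7 against 12.3 to 13.6. Each of these 7 lay above all 5 other libraries, in the library with HSPA6 at 637 TPM.

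MIR17HG was lowest in that library, at 0.735 scaled TPM against 7.90 to 12.9. MIR646HG stood at 15.9 against 39.1 to 45.8, MIR4453HG at 3.94 against 9.38 to 13.4, MIR181A2HG at 0.967 against 3.10 to 3.80 and MIR223HG at 0.577 against 1.77 to 8.13. SNHG16 was the 1 snoRNA host on this side by more than 1, at 22.1 against 42.2 to 61.4. Hosts that share mature sequences or a seed parted here: MIR181A1HG lay inside the range, at 26.6 against 23.8 to 35.3, while MIR181A2HG lay below it, and MIR302CHG was high where MIR17HG was low.

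The Dox- group means held both these values and the often low values of Dox- library 1. As deposited, MIR17HG stood at 11.5, 10.6 and 8.12 TPM in Dox+ and 5.06, 0.88 and 14.9 TPM in Dox-, so the highest and the lowest library were both Dox-. Its log2 change was 0.96 ± 0.42 (SE), with a limma adjusted p of 0.717. SNHG1 stood at 56.2, 36.2 and 29.1 TPM in Dox+ and 26.4, 150.5 and 43.2 TPM in Dox-, a log2 change of -0.51 ± 0.43 (SE, limma adjusted p = 0.738). SNHG12 stood at 10.1, 8.55 and 6.88 TPM in Dox+ and 5.04, 41.4 and 9.57 TPM in Dox-, a log2 change of -0.56 ± 0.42 (SE, limma adjusted p = 0.737).

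MIR646HG stood at 50.4, 42.9 and 47.1 TPM in Dox+ and 23.6, 19.1 and 52.2 TPM in Dox-, a log2 change of 0.68 ± 0.43 (SE, limma adjusted p = 0.737). SNHG16 stood at 57.2, 46.3 and 55.5 TPM in Dox+ and 30.2, 26.5 and 70.9 TPM in Dox-, a log2 change of 0.45 ± 0.43 (SE, limma adjusted p = 0.738). In both genes Dox- library 3 lay above every Dox+ library. Without Dox- library 2 the log2 change of MIR17HG stayed above 0, and those of SNHG1 and SNHG12 turned positive.

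Summed TPM of the snoRNA hosts was 2152, 1717 and 1800 in Dox+ and 1154, 3015 and 1923 in Dox-. Dox- holds both the lowest and the highest library. As a share of protein-coding TPM, which was 41.6% of Dox- library 1 against at least 74.9% of the other 5, the sums were 0.260%, 0.211% and 0.208% in Dox+ and 0.278%, 0.405% and 0.225% in Dox-. On that measure the highest Dox+ library lay above the lowest Dox- library, and Dox- library 2 was the highest of all 12. Summed microRNA host TPM was 186, 184 and 150.3 in Dox+ and 103, 176 and 202 in Dox-.

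The related lists had 0 calls by limma here as well, beside 0.396% of all genes, and 6.34% of all genes had an unadjusted p under 0.05. All 17 snoRNA particle proteins were above 0, with a median of 0.32, and 16 of them with median-of-ratios scaling, with a median of 0.09; 0 had an unadjusted p under 0.05. RUVBL1, an assembly factor of these particles, stood at 51.0, 49.4 and 62.1 TPM in Dox+ and 23.3, 20.5 and 67.6 TPM in Dox- (limma adjusted p = 0.737). Of 35 protein-coding snoRNA hosts, 34 were above 0 as deposited and 16 with that scaling, and 1 had an unadjusted p under 0.05. MicroRNA processing genes stood at 9 of 13 above 0 (8 with scaling) and decay genes at 9 of 15 (7 with scaling), with 0 at an unadjusted p under 0.05 in both. Of 5 tested snoRNA hosts with a C and pyrimidines at the start, 2 were above 0 and 3 below, with a median of -0.04. Of 16 with another annotated start, 11 were above 0 and 5 below, with a median of 0.20.

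The difference between the 2 effects, doxycycline minus ZNF683 against Mock, was tested over all 12 libraries. By limma 0 of 41 members passed, beside 0.0138% of all genes (2 of 14468). Beside 543 of all 14468 genes, 1 member had an unadjusted p under 0.05. This was SNHG26, with a difference in log2 change of 0.87 ± 0.41 (SE, limma adjusted p = 0.876). SNHG9 had the next smallest unadjusted p, with a difference of 0.995 ± 0.48 (SE, limma adjusted p = 0.876). A limma count of 0 at this spread does not show that the 2 effects were alike.

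Rows for the small RNAs inside the hosts are listed separately in the tables and are uncertain, since reads of the unspliced host cannot be told apart from the small RNA. The annotation places 137 snoRNA or related genes in snoRNA hosts and 98 small RNA genes in microRNA hosts. Of these, 81 and 43 had a row in the ZNF683 and Mock table, but only 10 and 10 reached a mean of 1 TPM. In the doxycycline table, rows were present for 55 and 19, and 14 and 7 reached that mean.

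A few of these rows had the layout of their host in Dox- library 2. SNORD99, inside SNHG12, stood at 13.4, 8.30 and 2.45 TPM in Dox+ and 4.30, 68.2 and 9.32 TPM in Dox-. MIR663A, inside MIR663AHG, stood at 7.51, 8.53 and 5.68 TPM in Dox+ and 1.73, 70.1 and 3.29 TPM in Dox-. MIR181B1, inside MIR181A1HG, was listed at 0 in Dox- library 2 while its host was not low, and between 6.504 and 12.1 TPM in the other 5 libraries. SNORD26 and SNORD27, inside SNHG1, were also listed at 0 in Dox- library 2, where SNHG1 was high. Both rows were at 0 in some other libraries too.

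Between ZNF683 and Mock, MIR302A was listed at 1.73, 2.42 and 4.02 TPM with ZNF683 and at 0 in all 3 Mock libraries, opposite in direction to its host MIR302CHG, with a limma adjusted p of 0.0742. With doxycycline, 3 hosted rows of under 2 TPM on average passed limma. Those tested were 14 rows in snoRNA hosts and 7 in microRNA hosts, and 0.396% of all genes passed. Each of the 3 reached the 1 TPM filter only through the group where it was high, as did MIR302A. The filter thus favoured such differences, and these p-values do not count as evidence of a change. MIR302D was lower in Dox+, at 0, 0 and 0.474 TPM against 1.68, 6.05 and 2.91 TPM (adjusted p = 0.00104). SNORD107, inside SNHG14, was listed at 0 in all Dox+ libraries and at 3.203, 2.78 and 0.503 TPM in Dox- (adjusted p = 0.0231). SNORD26, inside SNHG1, was listed at 0, 7.81 and 2.80 TPM in Dox+ and at 0 in all Dox- libraries (adjusted p = 0.00554), with groups that overlapped at 0. None of the 3 passed with median-of-ratios scaling, where each adjusted p was 0.688.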

How the data were processed

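The authors deposited 2 tables of TPM per gene symbol, 1 with the ZNF683 and Mock libraries and 1 with the Dox+ and Dox- libraries. Per the submitters' processing notes, kallisto 0.46.0 and DESeq2 1.22.2 were used, with no role given, and no build or transcript set is named in the sources used here. RNA came from a Qiagen RNeasy kit and libraries from a NEBNext low-input kit, per the labels' protocols. TPM values sum to about the same total in each library, so 1 very abundant transcript lowers all others, and depth is unknown.

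Genes averaging 1 TPM or more in a table were fitted on log2(TPM + 1), which understates changes of low genes, with limma 3.58.1 in R 4.3.3. The moderated test was two-sided with a mean-variance trend, and p-values were adjusted by Benjamini-Hochberg with a threshold of 0.05. Each table was fitted apart, and the difference of effects was a contrast over 12 libraries. In the doxycycline table limma put all weight on the common spread, so a gene's own spread hardly entered. An exact permutation test of 3 against 3 libraries cannot go below 0.1. The script was tested on simulated data. Members, gene lists and tests were chosen with earlier results of these data known. Members were named with values where they passed a test, had a mean of at least 20 TPM in either table, or were among the 4 largest rises or falls per comparison and host class; others named were chosen after their values were seen. Positions are from GENCODE v29 on GRCh38, where 91 of 92 members matched 1 gene (SNHG28 did not). Overlapping and antisense genes and hosted small RNAs share reads in gene-level TPM, and such values are uncertain. Alternatives were pseudocounts of 0.5 and 0.1, no filter or a mean of 5 TPM, median-of-ratios scaling, AL135790.1 left out before rescaling, robust limma, no trend, a replicate block, and each library left out.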

Additional observations from a re-analysis of the deposited data

How the results depend on the processing

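No setting other than leaving out Dox- library 3 gave a member a call. Limma called 0 snoRNA hosts and 0 microRNA hosts in ZNF683 against Mock under every alternative. For Dox+ against Dox-, leaving out 1 library at a time called 0 to 1 snoRNA hosts and 0 to 1 microRNA hosts, and for the difference of effects 0 to 3 members. The upper counts came without Dox- library 3 (SNHG16; MIR646HG; and SNHG26, MIR646HG and MIR4453HG), where calls over all genes went from 60 to 2779 and from 2 to 2539. Over all genes the other alternatives called 0 to 58 genes for doxycycline, beside 60 as reported, and 0 to 8 for ZNF683 against Mock, and leaving out libraries there called 0 to 47. Same-numbered libraries did not deviate together in the first table (correlations of -0.21, 0.07 and -0.25). In the doxycycline table they were 0.08, 0.05 and 0.36, beside -0.3284 to 0.1964 for unlike numbers, which does not settle whether they pair. The numbers were not taken as pairs in either table. With a replicate block limma called 0 members in each comparison, with 6 snoRNA hosts at an unadjusted p under 0.05 in ZNF683 against Mock (1516 of all genes), and over all genes 0 for ZNF683 against Mock, 34 for doxycycline and 60 for the difference. With AL135790.1 left out before rescaling, the mean summed TPM was 1774 for snoRNA hosts in Mock, and 211.9 and 212.5 for microRNA hosts in ZNF683 and Mock.

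None of the log2 changes below passed the threshold, and the cause of a reversal was not tested. With median-of-ratios scaling, MIR4453HG and MIR663AHG turned to 0.02275 and 0.01192 in ZNF683 against Mock, and for doxycycline MIR181A1HG turned to -0.1239, MIR223HG to -0.04574, SNHG17 to -0.02484, SNHG25 to -0.1915 and SNHG29 to -0.1008. With AL135790.1 left out, the doxycycline values were -0.2023, -0.06271, -0.1038, -0.2712 and -0.1809 for the same 5, and SNHG11, SNHG14 and SNHG30 turned to -0.04616, -0.07485 and -0.01028. Leaving out 1 library at a time, the log2 changes in ZNF683 against Mock that crossed 0 ranged from -0.06572 to 0.3625 for MIR17HG, -0.0912 to 0.03679 for MIR4453HG, -0.1035 to 0.06951 for MIR663AHG, -0.04579 to 0.1186 for SNHG14, -0.03068 to 0.1121 for SNHG15, -0.06477 to 0.2421 for SNHG16, -0.2451 to 0.01848 for SNHG21 and -0.03527 to 0.09779 for SNHG30.

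For doxycycline the same ranges were -0.4265 to 0.3271 for GAS5, -0.255 to 0.3525 for MIR181A1HG, -0.4201 to 0.5237 for MIR223HG, -0.6834 to 0.4198 for MIR302CHG, -0.8174 to 0.324 for MIR663AHG, -1.032 to 0.2018 for SNHG1, -0.127 to 0.4151 for SNHG11 and -1.168 to 0.2382 for SNHG12. They were -0.08585 to 0.3796 for SNHG14, -0.6387 to 0.4367 for SNHG15, -0.2201 to 0.4039 for SNHG17, -0.3335 to 0.3656 for SNHG25, -0.1282 to 0.3352 for SNHG29, -0.4243 to 0.1682 for SNHG3 and -0.01147 to 0.4912 for SNHG30. They were -0.4645 to 0.3678 for SNHG32, -0.346 to 0.3184 for SNHG5, -0.3945 to 0.4083 for SNHG6, -0.7919 to 0.1989 for SNHG7, -0.5228 to 0.2266 for SNHG8 and -0.201 to 0.5738 for SNHG9. TPM gives no depth, so low rows carry no counting interval.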
